A study of Arabidopsis thaliana with 6 samples.

Results

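The genes described here are 91 protein-coding genes of Arabidopsis thaliana that carry a locus code and no gene symbol, and whose signal in inflorescences was higher in the mutant top1a-2 than in the wild type. Each was chosen by 3 conditions: a top1a-2 mean of 8 or more on the log2 scale, a top1a-2 mean at least 0.7 above the wild-type mean, which is 1.62-fold, and all 3 top1a-2 values above all 3 wild-type values. They are 91 of the 4420 unnamed genes that were bright enough to meet the first condition, and those 4420 are part of 10763 unnamed protein-coding genes with a probe set of their own. The choice set aside 9 further loci, of which 8 would have met the thresholds. Because the comparison of the genotypes chose the genes, their differences are given as a description and not as a test.

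The study measured total RNA from inflorescences, the shoot tips with flower buds and open flowers, on Affymetrix arrays. There were 3 arrays of the wild type, Landsberg erecta, and 3 of top1a-2, which carries a mutation in 1 of the genes for DNA topoisomerase 1. Both genotypes were grown at 23 degrees C in continuous light, and a single mutant allele was studied. DNA topoisomerase 1 cuts 1 strand of the double helix and lets it turn, which relieves the supercoils that build up ahead of and behind a transcribing polymerase. Plants without a working copy of the alpha gene are known for disturbed organ arrangement at the shoot tip and for defects in flowers. The level of the mutated gene itself was not analysed here.

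A locus code without a symbol often means that a gene has never been studied by itself, while the protein family it belongs to is known. Flower parts grow by loosening and rebuilding their cell walls, which are made of cellulose, pectin and secreted proteins, and they coat their outer surface with cutin and wax. Pectin methylesterase inhibitors, pectate lyases, peroxidases and dirigent proteins act in the wall. Lipid transfer proteins and GDSL esterases, which are named after a sequence motif at their active site, are secreted families with known members that help build the cuticle and the pollen coat. Ubiquitin ligases, of which RING and F-box proteins are parts, mark other proteins for breakdown.

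The wild-type arrays were less alike than the mutant arrays. Correlations over the 11369 brighter probe sets were 0.955 to 0.977 among wild-type arrays, 0.978 to 0.985 among top1a-2 arrays and 0.887 to 0.938 from one genotype to the other. For the genes described, wild-type replicate 1 was the lowest wild-type array in 45 (49.5%), against 38.5% of the bright unnamed probe sets. Among mutant arrays, top1a-2 replicate 1 was the highest in 43 (47.3%), against 32.1%. The choice of genes favours low wild-type and high top1a-2 values, so these shares are a description only. Of the 22746 probe sets, 773 were called higher in top1a-2 (3.40%) and 1334 lower (5.86%), at an adjusted p under 0.05 in limma. No overlap with the wild type, in the direction of higher signal, was found for 3121 probe sets (13.7%).

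Of the 91 genes, 89 were called higher, beside 3.40% of all probe sets and 5.94% of bright unnamed probe sets, and nothing is read from that count because the same contrast chose the genes. The exceptions were AT2G35820 and AT1G69080, with differences of 0.79 and 0.75. The median difference was 0.89, or 1.85-fold, where the median over all probe sets was 0.00 and that over bright unnamed probe sets was 0.07. Most of the differences were modest: 32 genes lay between 0.7 and 0.8, 29 between 0.8 and 1, and 30 at 1 or more, of which 7 reached 1.5. Similar thresholds were met by 99 of 4443 bright unnamed probe sets (2.23%, the excluded loci counted) and by 34 of 853 bright probe sets of named genes (3.99%). The mirror image was more common, since 328 of 4558 unnamed probe sets with a wild-type mean of 8 or more (7.2%) were lower in top1a-2 by the same amount without overlap. The annotation used named no gene for 8730 probe sets, so the shares of named and unnamed genes cover only part of the array.

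**Figure D1:**
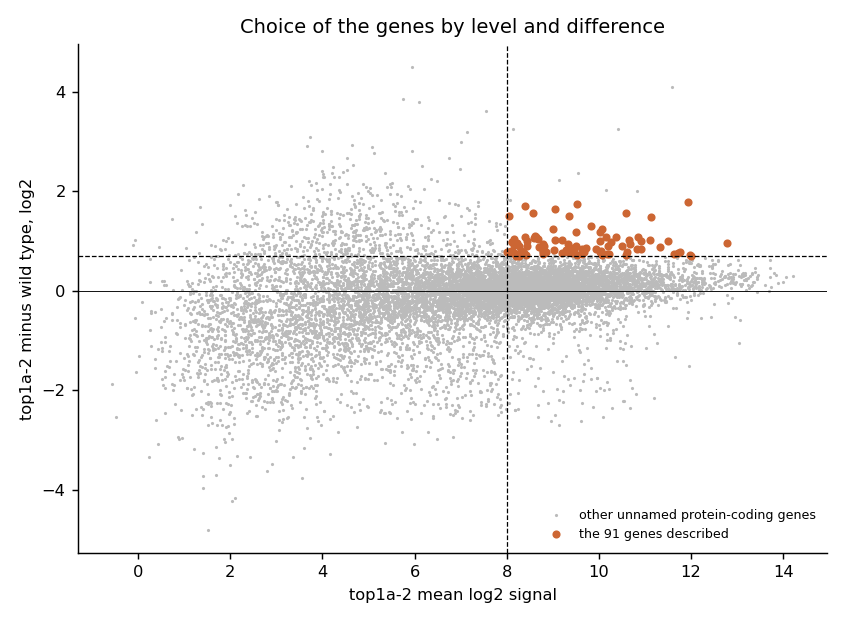
Each point is the probe set of an unnamed protein-coding gene, with its mean log2 signal over 3 top1a-2 arrays on the horizontal axis and its difference between genotypes, in log2 units, on the vertical axis. The dashed lines mark the thresholds of 8 and 0.7, the filled orange points are the 91 genes described, and grey points beyond both lines are genes whose values overlapped or that were set aside.

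Averaged over the 91 genes, the wild-type signal was 8.59, against 9.42 for bright unnamed probe sets. The choice of genes set this contrast, since it required a lower wild-type mean while the top1a-2 means were close, at 9.55 and 9.47. The brightness condition on top1a-2 limits how low the wild-type signal could be. In 55 of the 91 genes the wild-type mean was 8 or more. Their wild-type means ran from 6.56 to 11.83 with a median of 8.52, and 61 of 91 lay above 7.77, the median wild-type mean of all probe sets. In top1a-2 the means ran from 8.01 to 12.78 with a median of 9.43. In 36 genes the wild-type mean lay under 8, so that these crossed the brightness threshold only in the mutant. The gap between the lowest top1a-2 value and the highest wild-type value had a median of 0.59, was under 0.25 in 5 genes and was over 1 in 9.

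The largest difference belonged to AT2G33850, whose product resembles the cotton fibre protein E6. Its log2 signal was 10.70, 9.72 and 10.07 in the wild type and 11.64, 12.09 and 12.08 in top1a-2. The groups did not overlap, the wild type spread over nearly 1 unit with replicate 1 at the top, and the difference was 1.77 ± 0.22 (SE), or 3.42-fold. It is also among the brightest of the genes, with a top1a-2 mean of 11.94. Without wild-type replicate 1 its difference was 2.04.

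AT5G05960, a gene of the lipid transfer protein family that was put forward as a marker of these genes, is not among the 91. Its signal was 5.62, 6.20 and 6.64 in the wild type and 7.90, 7.69 and 8.40 in top1a-2. The top1a-2 mean was 7.997 and fell just short of 8, although the difference of 1.84 ± 0.30 (SE), or 3.59-fold, is larger than that of any gene described. With means rounded to 2 decimals the conditions are met by 95 genes, the 91 and 4 more, AT5G05960 among them.

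The next largest differences were found in families with quite different roles. AT3G53980, a lipid transfer family gene, read 7.90, 7.74 and 7.74 in the wild type and 9.71, 9.39 and 9.49 in top1a-2, a difference of 1.74 ± 0.13 (SE). AT3G57600, which encodes a transcription factor of the AP2/ERF family, read 6.70, 6.86 and 6.49 against 8.36, 8.38 and 8.43, a difference of 1.71 ± 0.18 (SE). In both genes the arrays of a genotype lay close together, and the gaps of 1.49 and 1.5 were the widest of all 91. AT5G60250, a RING-type zinc finger protein, read 7.55, 7.32 and 7.35 against 9.15, 8.85 and 9.12, a difference of 1.63 ± 0.15 (SE).

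AT1G65370, a protein with TRAF-like domains, read 9.45, 8.52 and 9.11 in the wild type and 10.51, 10.65 and 10.63 in top1a-2. AT5G44020, an acid phosphatase of the HAD superfamily, read 6.55, 7.33 and 7.11 against 8.25, 8.55 and 8.90. Both differences were 1.57, yet wild-type replicate 1 was the highest wild-type array for the first gene and the lowest for the second, and leaving it out moved the differences to 1.78 and 1.35. AT4G23720 read 6.64, 6.59 and 6.45 against 7.98, 7.94 and 8.25, a difference of 1.5 from the lowest wild-type mean of all 91. AT2G18600, an enzyme of the ubiquitin-conjugating family that handles the ubiquitin-like protein RUB, read 8.75, 8.25 and 8.57 against 10.07, 9.58 and 9.81, a difference of 1.30.

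AT1G19380 and AT3G22550 complete the 12 largest differences. AT1G19380 read 7.52, 7.87 and 7.85 in the wild type and 8.92, 9.09 and 8.97 in top1a-2, a difference of 1.25. AT3G22550 read 8.50, 9.02 and 8.94 against 10.13, 10.07 and 9.99, a difference of 1.24. In both, wild-type replicate 1 was the lowest array, and the mutant arrays were tightly grouped.

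**Figure D2:**
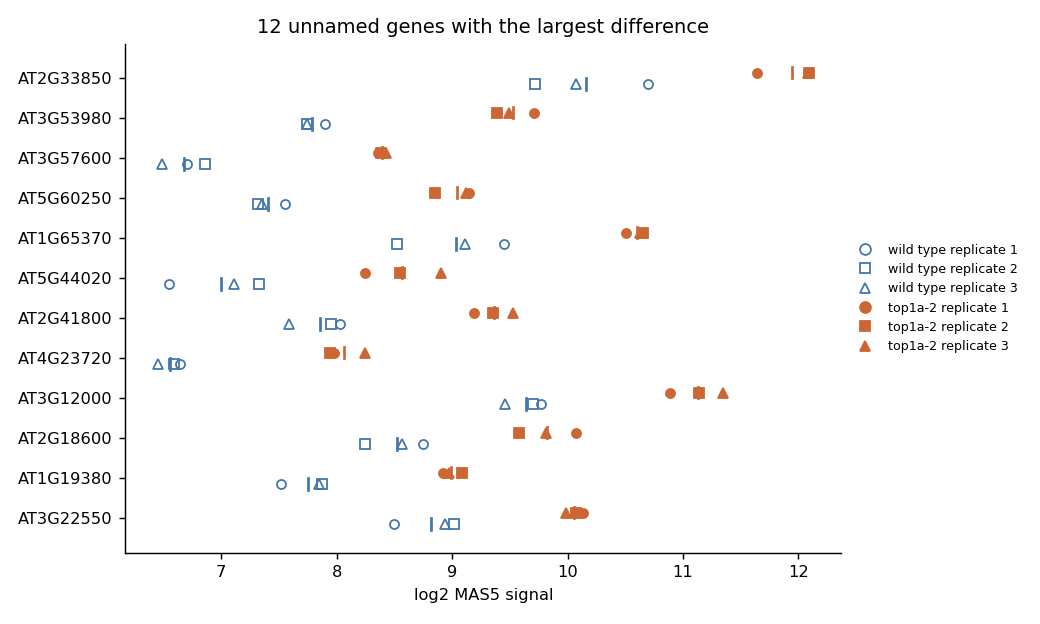
Log2 MAS5 signal (horizontal axis) of the 12 genes with the largest difference, 1 row per gene. Open blue symbols are the 3 wild-type arrays, filled orange symbols the 3 top1a-2 arrays, and short bars the means; no gene overlaps between genotypes, which the choice required, and AT2G33850 has the widest wild-type spread.

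By family, 24 of the 91 genes encode cell wall or secreted proteins, 9 act in lipid transfer or lipid metabolism, 13 in gene regulation, ubiquitin attachment or signalling, 4 in the chloroplast, and 8 in metal binding, movement along microtubules, translation or oxidation and reduction. No role was assigned to the other 33. Median differences of these groups lay close together, at 0.96, 1.04, 1.01, 0.84, 0.76 and 0.82 in that order. The groups were put together from textbook knowledge after the values were seen, and their medians follow from the choice of genes.

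In the cell wall group, differences ran from 0.70 to 1.57, and 9 of 24 were at 1 or more. It holds the brightest gene of all, AT1G55210, a dirigent protein of the kind that guides the coupling of phenolic building blocks. It read 11.80, 11.84 and 11.85 in the wild type and 12.82, 12.74 and 12.78 in top1a-2, with a difference of 0.95 ± 0.10 (SE) and almost no spread within a genotype. AT4G24780, a pectin lyase-like protein, read 11.24, 11.16 and 11.39 against 12.04, 11.89 and 12.02, a difference of 0.72. AT3G61820, an aspartyl protease, read 10.95, 10.77 and 11.23 against 11.79, 11.89 and 11.58, a difference of 0.77. The widest spread among these 3 was in the protease, whose gap between groups was 0.35.

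AT2G14900, of the gibberellin-regulated GASA family of small secreted cysteine-rich proteins, read 10.40, 10.53 and 10.57 in the wild type and 11.57, 11.27 and 11.66 in top1a-2, which is 2-fold. AT3G62820 belongs to the family of invertase and pectin methylesterase inhibitors, which hold back the enzymes that trim sugars and pectin. It read 8.82, 8.86 and 8.86 against 10.07, 9.96 and 10.04, a difference of 1.18 ± 0.10 (SE), with replicates nearly equal. AT3G10720 also carries the inhibitor domain, which by itself does not make the protein an inhibitor. It showed 8.75, 9.06 and 8.87 against 9.59, 9.79 and 9.50, a difference of 0.73.

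AT3G12000, an S-locus glycoprotein-related gene, belongs to a family known in Brassica from the stigma, the surface that receives pollen. It read 9.77, 9.70 and 9.46 in the wild type and 10.89, 11.14 and 11.35 in top1a-2, a difference of 1.48 ± 0.14 (SE). It is also 1 of 6 genes in a list of stigma and transmitting tract markers, of which 2 could be measured. The other was SPT, a transcription factor of the carpel margin, with means of 8.06 and 8.16 and a difference of 0.09 (adjusted p 0.778). With a single other marker measured, a change of the stigma itself was not tested.

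The cell wall group further includes the glycine-rich proteins AT1G30795 (1.09) and AT4G30450 (1.00), the lectins AT1G52000 (1.08) and AT1G53070 (0.87), and AT1G03710, of the cystatin and monellin fold (1.09). It also includes the germin-like protein AT3G10080 (1.01), the peroxidase AT3G21770 (0.97), the subtilisin-like protease AT4G20430 (0.93), and AT5G67460 (0.77), a glycoside hydrolase of family 17. Wild-type replicate 1 was 0.61 lower than the mean of the other wild-type arrays in AT4G20430, whose difference was 0.73 without it.

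DUF642 proteins, a small plant family of secreted wall proteins, gave 3 of the genes. AT2G41800 read 8.03, 7.95 and 7.59 in the wild type and 9.19, 9.35 and 9.53 in top1a-2, a difference of 1.5 ± 0.16 (SE). AT1G29980 read 10.14, 9.86 and 10.24 against 10.83, 10.97 and 10.96, a difference of 0.84 ± 0.12 (SE). AT3G08030 read 11.11, 11.46 and 11.35 against 12.02, 11.96 and 12.04, and with a difference of 0.70 ± 0.12 (SE) it is the smallest difference of the 91 and the second brightest of them.

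The family as a whole did not move in 1 direction. Of 10 DUF642 genes, 8 could be measured: the 3 named above were called higher, 2 were called lower and 3 were not called, with a family median of 0.34. Without the 3 genes, which were chosen for being higher, 0 of 5 were called higher and 2 lower, and the median was -0.43. Over all genes, 2.97% were called higher and 5.40% lower. Taking out genes chosen for being higher by itself lowers the share of higher calls and the median. The shares over all genes keep such genes, so the values without the 3 genes are a description only. AT5G11420 fell by 1.05 (adjusted p 0.000921), from 11.60, 11.60 and 11.66 to 10.25, 10.62 and 10.83. AT4G32460 fell by 0.43 (adjusted p 0.0329), from 12.42, 12.27 and 12.40 to 11.99, 11.88 and 11.94. AT4G32460 lost its call under median centring and with any array but wild-type replicate 2 left out. AT2G34510 had means of 8.52 and 8.97, with a difference of 0.45 (adjusted p 0.165). No limit on brightness was set for the family, and AT2G41810 was dim, with means of 3.88 and 2.92.

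GDSL esterases and lipases gave 4 of the genes. AT1G33811 read 8.13, 8.60 and 8.23 in the wild type and 9.48, 9.51 and 9.50 in top1a-2, a difference of 1.18 ± 0.14 (SE). AT2G03980 read 9.90, 9.68 and 9.66 against 10.71, 10.56 and 10.77, a difference of 0.93. AT1G28580 read 9.78, 9.94 and 10.25 against 10.87, 10.76 and 10.86, a difference of 0.84. All 3 were clear of overlap by at least 0.5. The fourth gene, AT5G14450, read 8.43, 8.97 and 8.61 against 9.42, 9.33 and 9.53, a difference of 0.76.

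More genes of this family were called lower than higher. Of 82 GDSL genes, 55 were measured, and 6 were called higher and 14 lower, with a median of -0.07; over single genes, 2.97% of all were called higher and 5.40% lower. Without the 4 genes above, which were chosen for being higher, 2 of 51 were called higher and 14 lower, with a median of -0.32. That removal by itself lowers the share of higher calls and the median, so these values are a description only. Under median centring the whole family had 8 higher and 9 lower calls. The family counts had no limit on brightness, and some genes were dim, such as AT3G14820 with means of 2.60 and 2.46. Outside the 4 genes, AT1G75890 (0.98) and AT1G29670 (0.55) were higher. AT5G42170 fell by 2.50 (adjusted p 0.000107), from a mean of 9.32 to 6.82. AT1G06990 fell by 1.43 (adjusted p 0.000134) and AT3G48460 by 1.14 (adjusted p 0.000105). AT1G28580 lies in a run of related genes with neighbouring locus codes. In that run AT1G28570 differed by 0.71 with overlapping groups, AT1G28590 by 0.67, AT1G28600 by 0.48, AT1G28610 by 0.09, AT1G28640 by -0.41 and AT1G28650 by 0.88. None of these 6 was called, and AT1G28590, AT1G28640 and AT1G28650 were dim, with values that varied by more than 1 unit within each genotype.

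Lipid transfer proteins gave 3 of the genes, AT3G53980 above among them. AT3G18280 read 10.10, 10.01 and 10.15 in the wild type and 11.27, 10.96 and 11.11 in top1a-2, a difference of 1.03 ± 0.11 (SE). AT1G05450 read 7.95, 7.18 and 7.80 against 8.17, 9.11 and 8.76, a difference of 1.04 ± 0.26 (SE). AT3G18280 was uniform within genotypes, whereas the top1a-2 arrays of AT1G05450 covered nearly 1 unit and its gap to the wild type was 0.22. The call of AT1G05450 was lost when any 1 of 4 arrays was left out, namely wild-type replicates 2 and 3 and top1a-2 replicates 2 and 3.

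Of 90 genes listed for the lipid transfer family, 44 were measured. The 3 genes and AT5G05960 were called higher, 7 were called lower, and the family median was -0.30, where 2.97% of all genes were called higher and 5.40% lower. Without the 3 genes, which were chosen for being higher, 1 of 41 was called higher and 7 lower, with a median of -0.34. Here too the removal by itself lowers the share of higher calls and the median. The lower genes include some of the brightest in the family. AT1G66850 fell by 1.05 (adjusted p 0.000944), from a mean of 14.09 to 13.04. AT4G14815 fell by 1.47 (adjusted p 8.34e-05), from 10.97, 11.21 and 11.29 to 9.67, 9.50 and 9.89. AT5G07230, which is also on the list of tapetum and anther markers, fell by 1.04 (adjusted p 0.00437).

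**Figure D3:**
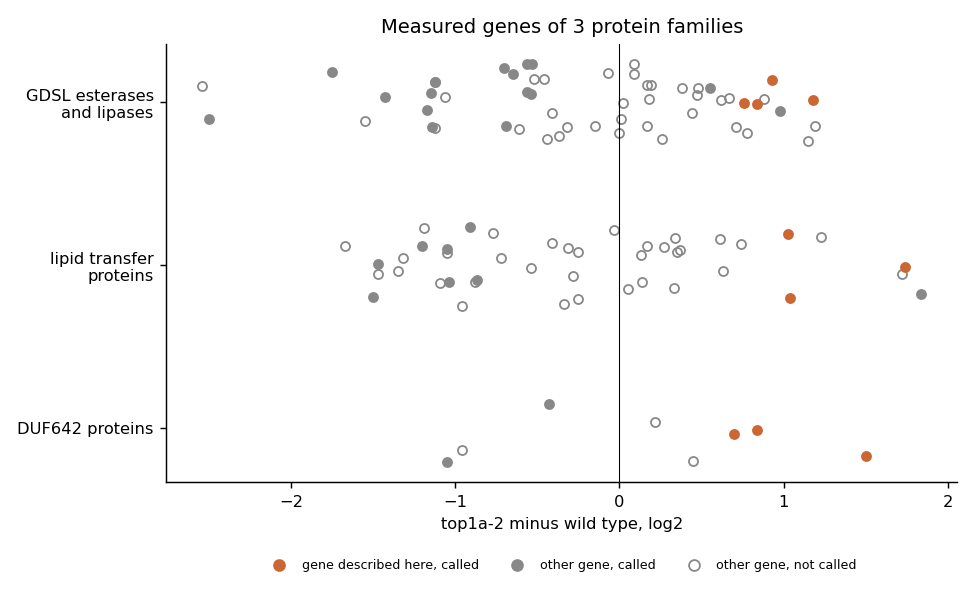
Difference between top1a-2 and wild type (horizontal axis, log2) for every measured gene of 3 protein families, 1 point per gene, spread vertically only for visibility. Orange points are among the 91 genes, filled grey points are other genes called in limma, and open points were not called. In the GDSL and lipid transfer families the filled grey points lie mostly left of 0, and they leave out the genes chosen for being higher.

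The remaining lipid genes were AT3G15650, a carboxylesterase, with a difference of 1.07, and AT5G16010, which resembles the steroid 5-alpha-reductases, with 1.09. AT5G16010 read 8.98, 8.78 and 9.41 in the wild type and 10.52, 9.80 and 10.12 in top1a-2. It is 1 of the more variable genes, with a gap of 0.39.

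Among the 13 regulatory genes, differences ran from 0.70 to 1.71, and 7 were at 1 or more. Several attach ubiquitin or choose its targets: the F-box proteins AT5G60610 (1.07) and AT1G10780 (0.81), the RING proteins AT5G60250 (1.63) and AT5G53110 (0.70), and the BTB-domain protein AT1G01640 (1.01). AT3G28220, a TRAF-like protein as AT1G65370 is, read 9.71, 9.52 and 9.66 in the wild type and 10.84, 10.76 and 10.37 in top1a-2, a difference of 1.03. Transcription factors were few, with AT3G57600 above and AT4G34400, of the B3 family, which read 7.79, 7.90 and 7.44 against 8.20, 8.51 and 8.56. The group also holds a protein kinase, AT1G80640 (0.80), and a protein of the TIR-NBS-LRR class of disease resistance receptors, AT5G40060 (0.76).

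The 4 chloroplast genes differed by 0.74 to 0.97. AT5G08050 was the brightest and, among wild-type arrays, the most even, with 10.94, 10.82 and 10.89 in the wild type and 11.76, 11.51 and 11.60 in top1a-2. AT5G52780, which resembles the photosystem assembly factor PAM68, read 8.57, 9.65 and 9.68 against 10.19, 10.31 and 10.31. Wild-type replicate 1 was thus 1.09 lower than the mean of the others, and without it the difference of 0.97 became 0.61. AT3G08920, a rhodanese-like protein, differed by 0.86, and AT3G26070, a fibrillin of the plastid, by 0.82, the latter on the single probe set of the 91 whose suffix marks probes shared between genes.

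Beside them, some nuclear photosynthesis genes rose. Of 30 such genes 7 were measured, all 7 had every top1a-2 value above every wild-type value (13.7% of all probe sets), 4 were called higher (3.40% of all probe sets) and 0 lower, and the median was 0.58. LHCB4.2, an antenna protein of photosystem II, had means of 10.56 and 11.36 and a difference of 0.79 (adjusted p 0.00484). CaS, a calcium-sensing protein of the thylakoid, had means of 9.90 and 10.68 and a difference of 0.78 (adjusted p 0.014). The mean of the 7 genes was 11.73 on wild-type replicate 1 and 12.24 and 12.16 on the others, against 12.80, 12.65 and 12.56 in top1a-2. The part of green tissue in the results for the chloroplast genes was not tested.

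The 8 genes of the last assigned group differed by 0.71 to 1.05. AT5G19440, of the cinnamyl alcohol dehydrogenase-like family, read 10.88, 11.04 and 10.92 in the wild type and 11.93, 11.56 and 11.64 in top1a-2, a difference of 0.76. AT1G23000 (1.05) and AT3G24450 (0.74) carry a heavy-metal-associated domain. AT5G23910, a kinesin motor protein, doubled from a mean of 7.43 to 8.43. AT5G12110, a subunit of elongation factor EF1B, read 7.61, 7.32 and 7.94 against 8.15, 8.38 and 8.60, with a gap of 0.21 between the groups.

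Among the 33 genes without an assigned role, differences ran from 0.71 to 1.77, and 6 were at 1 or more. AT2G35820 read 8.68, 9.45 and 9.60 in the wild type and 10.11, 9.76 and 10.22 in top1a-2. Its gap of 0.16 was the narrowest of the 91, and without wild-type replicate 1 its difference of 0.79 became 0.51. AT1G69080, the other gene without a call, read 7.22, 7.71 and 7.52 against 8.59, 8.16 and 7.94, with top1a-2 replicate 1 well above its partners.

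Some genes lay at the borders of the choice. Just inside the threshold on the difference were AT2G40640 with 0.707, AT5G53110 with 0.703 and AT3G08030 with 0.70. Just outside it, AT2G29320, AT3G23570 and AT5G47970 each differed by 0.697, which leaves no visible step at the threshold. A difference of 0.5 to 0.7 with the other conditions met was found for 173 genes, a top1a-2 mean under 8 for 209, and overlap as the missing condition for 6.

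Within a genotype, the genes described were slightly more variable in the wild type than other bright unnamed probe sets. The median SD over 3 arrays was 0.19 in the wild type, against 0.16 for bright unnamed probe sets, and 0.13 in top1a-2 for both. In the wild type these sets were not of like level, with mean signals of 8.59 and 9.42. The part of signal level in the wild-type spread was not tested. The wild-type SD was the larger of the pair in 58 of 91 genes (63.7%), beside 58% of bright unnamed probe sets. In 26 genes (28.6%) wild-type replicate 1 lay at least 0.3 below the mean of its partners, against 14.2% of bright unnamed probe sets, and in 7 (7.69%) it lay at least 0.3 above, against 12.7%. A low wild-type array widens the difference and a high one narrows it, so the choice of genes itself favours such an imbalance. The same shares were not counted for the other wild-type replicates. The mean over the 91 genes was 8.51, 8.61 and 8.64 on the wild-type arrays and 9.58, 9.52 and 9.55 on the top1a-2 arrays. Leaving out wild-type replicate 1 lowered the median difference from 0.89 to 0.82.

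Markers of anther cells were lower in top1a-2, beside the higher signals of the 91 genes. Over all genes, 5.40% were called lower, and the marker lists were written with earlier results of these data known. Of 21 pollen genes 16 were measured, and all 16 were called lower, with a median of -1.99. PLIM2a, an actin-binding protein of pollen, fell by 2.20 (adjusted p 5.21e-05), and AT59, a pectate lyase of pollen, fell by 2.93 (adjusted p 5.46e-05). Of 18 tapetum and anther genes 6 were measured and 5 were called lower, with a median of -1.33. ATA27, an anther beta-glucosidase, fell by 1.19 (adjusted p 0.000767) from a wild-type mean of 13.60, among the strongest signals of the lists, so floral transcripts were present as the tissue label states.

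The pollen mean was 9.67, 8.86 and 9.06 on the wild-type arrays and 7.30, 7.25 and 7.33 on the top1a-2 arrays, so wild-type replicate 1 was highest in pollen signal and lowest in the mean of the 91 genes. The tapetum and anther mean was 9.55, 9.42 and 9.64 against 8.12, 8.06 and 8.42. In these arrays fewer cells of a type and less RNA per cell cannot be told apart. Whether a changed cell makeup has a part in the higher signals was not tested. The remaining lists held few measured genes and no call. INO, an outer integument regulator of the ovule, differed by -0.44 (adjusted p 0.23) and SWEET9, a nectary sugar transporter, by -0.23 (adjusted p 0.584). None of 6 epidermis genes was measured, and 4 of 10 genes of dividing cells had a median of 0.06, among them AUR1 with 0.28 (adjusted p 0.127) and HTB1 with -0.26 (adjusted p 0.162).

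**Figure D4:**
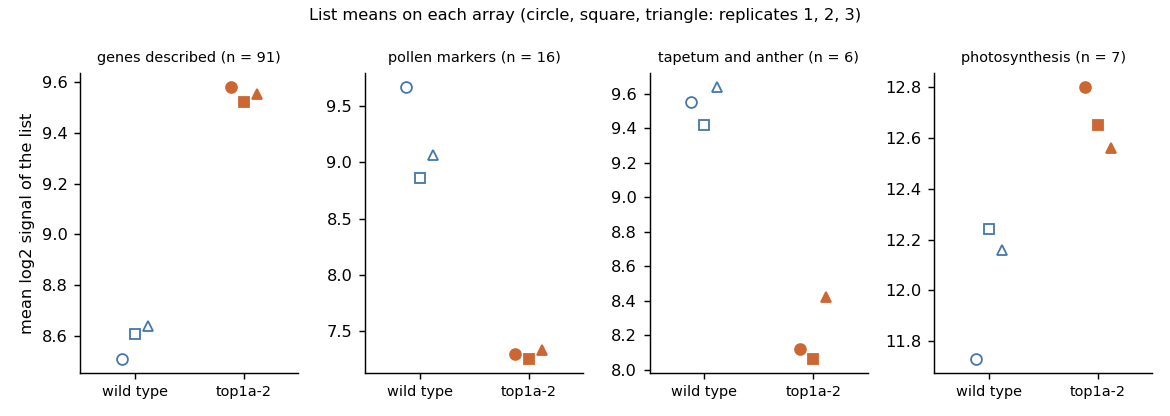
Mean log2 signal on each array (vertical axis, a separate scale in each panel) of the 91 genes and of 3 marker lists; open blue symbols are wild type, filled orange symbols top1a-2, and circle, square and triangle are replicates 1, 2 and 3. Wild-type replicate 1 is lowest for the 91 genes and for photosynthesis and highest for pollen.

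The genes were scattered over the genome. Chromosomes 1 to 5 held 26, 15, 20, 9 and 21 of them, or 28.6%, 16.5%, 22%, 9.89% and 23.1%, where bright unnamed probe sets were spread as 26.3%, 14.6%, 20.8%, 13.9% and 24.4%. In 0 cases were 2 of the genes direct neighbours. The closest pair was AT5G35735, a DOMON and cytochrome b561 protein, and AT5G35740, a protein with the sugar-binding X8 domain, with 1 gene between them. AT5G35735 read 7.91, 8.23 and 8.04 in the wild type and 9.0, 8.87 and 8.67 in top1a-2, and AT5G35740 read 7.59, 7.79 and 8.15 against 8.90, 8.81 and 8.64.

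Few of the genes beside the 91 were called. Of 89 measured neighbours, 2 were called higher (2.25%) and 3 lower (3.37%), with a median difference of 0.08, while 2.97% of all genes were called higher and 5.40% lower. The higher neighbours were AT1G07450 (0.55, adjusted p 0.0474) and AT5G14460 (0.58). The lower ones were AT1G10770, which fell by 2.35 beside the F-box gene AT1G10780, AT2G04020, which fell by 2.44, and AT4G20420, which fell by 1.00. Near the mutated locus, AT5G55300, locus codes within 5000 units held 182 bright unnamed probe sets, of which 4 (2.2%) are among the 91, beside 2.05% of bright unnamed probe sets overall.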

How the data were processed

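The deposited values are log2 signals for 22810 probe sets on 6 arrays, made with affy and MAS5 per the submitters' processing notes; their versions are not given. The trimmed mean of the unlogged signal, leaving out 2% at each end, was 500 on every array. With the 64 control probe sets set aside, limma 3.58.1 (R 4.3.3) was fitted to 22746, with lmFit and eBayes, genotype alone and a variance prior that depends on signal. Adjusted p-values are by Benjamini-Hochberg over all of them, and called means under 0.05. No filter or pseudocount was used, SDs are over 3 arrays, and precision is limited by their number. The series calls the replicates biological.

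The platform annotation names 1 gene for 13513 probe sets, several for 503 and none here for 8730. By gene identifier 13436 matched RefSeq TAIR10.1, which gave symbols, gene types and neighbours for 13286 genes. Where a gene had several probe sets, the count per gene used 1. A listed gene counts as measured only if a probe set was assigned to it alone here, so others may still be on the array. The array's build is not named, so no coordinates are given. Gene descriptions and sequence tables named in the plan were not used here, so families and roles were listed by hand after the values were seen. The mutated gene's own level was not analysed here.

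The members and lists were chosen with earlier results of these data known. Genes were named by a rule: the 2 marker genes, the 12 largest differences, the 8 brightest, families with at least 2 members, close neighbours, and the 3 genes on either side of the threshold; in other lists, those with the smallest p. Genes beyond that rule were named after their values were seen. The fit was tested on simulated data with known changes. Alternatives were other scalings, a pseudocount of 16, other variance priors, a filter on dim probe sets, a replicate block, other thresholds and each array left out.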

Additional observations from a re-analysis of the deposited data

Results flagged for a closer look

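An actin control, which lies outside the genes compared and reads RNA integrity, had a 3′ to 5′ signal difference of 3.42, 3.5 and 3.79 in the wild type and 4.05, 3.95 and 4.09 in top1a-2 (log2). The difference was 0.46 and the groups did not overlap. Its part in the signals of the 91 genes was not tested.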

How the results depend on the processing

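Of 142 recomputed summary values, none reversed and 28 moved, which for a count means by more than 1.5 times and for a median by more than its SD between arrays. The number of genes that met the conditions was 156 with median centring, 264 with a difference of 0.5, 30 with a difference of 1, 143 with a mean of 7 and 56 with a mean of 9, and 98 to 125 with 1 array left out. Of the 91 genes, 58 met the conditions with every array left out in turn and 85 under quantile normalization, median centring and the pseudocount. Their median difference was 0.98 with median centring and 0.82 to 0.93 with 1 array left out. The 89 calls became 52 with a variance prior without the trend, and 68 of the genes were called with all arrays and with each array left out, the counts running from 72 without top1a-2 replicate 1 to 85 without wild-type replicate 2. Over all probe sets, calls went from 773 higher and 1334 lower to 209 and 633 without the trend, 30 and 20 without moderation, and 357 to 793 and 975 to 1335 with 1 array left out; the higher calls were 357, 411 and 373 without top1a-2 replicates 1, 2 and 3. Higher calls were 36.7% of calls, 49.7% with median centring and 41.5% with quantile normalization (1153 higher and 1167 lower calls with median centring). Median centring shifted the median of all probe sets by 0.09 and quantile normalization by 0.06. With 1 array left out, the pollen median ran from -2.17 to -1.67 and the tapetum and anther median from -1.50 to -1.22. Lower DUF642 genes numbered 1 with median centring and 1 to 2 with 1 array left out, lower GDSL genes 9 with median centring and 9 to 13 with 1 array left out (9 without top1a-2 replicate 2 or 3), and lower lipid transfer genes 4 to 8 with 1 array left out (4 without wild-type replicate 3 or top1a-2 replicate 1). Of 321 values of 27 named genes under alternatives, 310 kept their call and 11 lost it, 6 of them those of AT1G05450. These values and the counts of calls among the 91 genes leave out the fit without moderation. In that fit only 30 of all probe sets were called higher, so most of the 91 genes could not have kept a call. The replicate numbers were not taken to pair the arrays, because deviations of same-numbered arrays correlated at 0.09, 0.09 and 0.21; with a replicate block, 748 probe sets were called higher, 1342 lower and 88 of the genes higher. Role group medians ran from 0.74 to 1.13 over 45 recomputed values and none reversed; these alternatives, the rounded means and the hand-written families were chosen after seeing the data.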
